A study of Mus musculus with 54 samples.

Results

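The genes described here encode proteoglycans and fibre-associated proteins of the extracellular matrix, chosen by name: Dcn, Lum, Bgn, Ogn, Fmod, Postn, Vcan, Bmp1, Fbn1 and Fbln1. Of these 10 genes, 9 carry probe sets in the expression table (22 probe sets among 30939), and Fbn1 was not analysed here. Where several probe sets named a gene, the brightest one over all arrays stood for it, and 14104 genes were read in this way. The study followed mouse CGR8 embryonic stem cells (ESCs; strain 129, male) as undifferentiated cells (day 0) and as embryoid bodies (EBs) formed in hanging drops after 2, 4, 12, 15 and 22 days. There were 3 lines: untreated wild type cells (WT), cells with a stable scrambled shRNA (SCR), and cells with a stable shRNA against Mageb16 (KD), a gene of the melanoma antigen family. Each line at each day had 3 Affymetrix Mouse430 2.0 arrays, which makes 18 groups and 54 arrays. SCR and KD are 1 drug-selected population each, so the effect of a construct and that of a line cannot be told apart, and the labels do not say whether arrays of a group came from separate cultures. EBs are mixtures of cell types that were measured in bulk, so more cells of a type and more RNA per cell cannot be told apart.

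Decorin (Dcn), biglycan (Bgn), lumican (Lum), fibromodulin (Fmod) and osteoglycin (Ogn) are small leucine-rich proteoglycans, which bind collagen and control the width and spacing of its fibrils. Versican (Vcan) is a large chondroitin sulfate proteoglycan that binds hyaluronan and fills the provisional matrix of the developing heart and of mesenchyme. Fibulin-1 (Fbln1) lies on elastic fibres and basement membranes, fibrillin-1 (Fbn1) builds microfibrils, periostin (Postn) is a matricellular protein of collagen-rich tissue and heart valves, and Bmp1 is the protease that trims procollagens and also matures biglycan and lysyl oxidase. All are made mainly by fibroblasts and other mesenchymal cells.

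The labels were checked on Mageb16. Its log2 signal lay between 3.49 and 7.43 on the KD arrays of every day and between 6.98 and 10.15 on the WT and SCR arrays. KD was lower than SCR on each day, by the least at day 22, where it fell by 2.43 on the log2 scale (SE 0.17). SCR stood apart from WT in the same gene at day 4, when it was higher by 2.47 (SE 0.17). Arrays of 1 group correlated at 0.986 to 0.997 over all probe sets. In 17 of 18 groups replicate 3 lay between the other arrays at more probe sets than replicate 1 or 2 did (41.6% to 59.3% of probe sets), and in KD EBs of day 22 it did so at 32.8%. Independent arrays would hold this place about equally often. Whether replicate 3 is independent was not tested, and if it is not, the SEs and p-values given are too small. Without replicate 3, as many members were called between lines over days 12 to 22 as with all arrays.

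The members differed together between lines late in differentiation, so the window around the start site (250 bases before to 50 after, from RefSeq) is shown for 3 small proteoglycans and for periostin, which of the members with a window had the largest KD difference from SCR at day 22. Capitals mark the TATA box, spelled TATAAA, and the E-box, spelled CANNTG, read on both strands. The windows are from mouse build GRCm38.p6, all on the plus strand, at chrX:73483351-73483650 for Bgn, chr1:134037004-134037303 for Fmod, chr13:49607765-49608064 for Ogn and chr3:54360857-54361156 for Postn, whose second start site is shown since it holds a TATA box.
Bgn: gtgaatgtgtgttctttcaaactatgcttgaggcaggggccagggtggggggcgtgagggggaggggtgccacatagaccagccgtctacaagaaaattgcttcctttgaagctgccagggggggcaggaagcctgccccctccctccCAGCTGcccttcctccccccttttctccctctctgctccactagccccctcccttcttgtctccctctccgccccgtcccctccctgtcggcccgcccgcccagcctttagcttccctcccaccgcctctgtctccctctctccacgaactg
Fmod: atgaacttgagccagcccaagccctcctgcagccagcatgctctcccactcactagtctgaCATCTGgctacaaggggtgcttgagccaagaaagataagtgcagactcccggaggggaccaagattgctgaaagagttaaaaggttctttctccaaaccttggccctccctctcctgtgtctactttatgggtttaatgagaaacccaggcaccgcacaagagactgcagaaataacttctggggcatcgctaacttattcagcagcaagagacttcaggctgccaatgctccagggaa
Ogn: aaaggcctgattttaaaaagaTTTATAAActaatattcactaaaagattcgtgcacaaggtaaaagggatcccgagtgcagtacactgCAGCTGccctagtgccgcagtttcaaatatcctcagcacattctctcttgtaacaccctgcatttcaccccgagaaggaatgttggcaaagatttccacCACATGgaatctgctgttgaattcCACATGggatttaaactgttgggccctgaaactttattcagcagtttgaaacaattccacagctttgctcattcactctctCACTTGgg
Postn: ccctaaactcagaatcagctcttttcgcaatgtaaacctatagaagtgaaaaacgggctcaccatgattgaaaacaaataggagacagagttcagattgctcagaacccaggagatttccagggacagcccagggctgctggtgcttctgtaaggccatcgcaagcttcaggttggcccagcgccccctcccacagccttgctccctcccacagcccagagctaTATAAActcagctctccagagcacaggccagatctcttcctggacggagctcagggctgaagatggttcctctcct
The Postn window holds TATAAA at -26 to -21 from its start site, and Ogn holds overlapping copies, 1 on each strand, at -229 to -222. Among 6 measured members with a window (Bgn, Fmod, Ogn, Vcan, Fbln1 and Postn), 2 had TATAAA, which 13.6% of 32851 promoter windows held. A member counted if any of its windows held the motif, and Fbln1 and Postn have 2 windows each. The percentages are of single windows, so the measures are not quite alike. E-boxes were in 5 of 6 (72.3% of all windows), CAGAC, the SMAD box, was in 3 of 6 (49.6%), and CCAAT was in 3 of 6 (37.4%). GGAATG, the TEAD core, was in Ogn alone (14.7%), and TGANTCA, the AP-1 site (7.81%), and the CArG box (1.63%) were in none of these windows. Of the printed windows, Ogn had the most E-boxes, at 4 places, Bgn and Fmod had 1 each and Postn had none, and no motif searched was in all 4.

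All 9 measured members were higher in KD than in SCR EBs over the mean of days 12, 15 and 22, by 1.03 to 4.26 on the log2 scale (median 2.40, against -0.02 over all genes; 1 log2 unit is a 2-fold change). A gene was called where limma gave a Benjamini-Hochberg adjusted p under 0.05 over all probe sets and at least a 2-fold change, and 10.1% of all genes were called higher in this comparison. Ogn was highest over SCR at 4.26 (SE 0.13), then Dcn at 3.71 (SE 0.11), Fmod at 3.07 (SE 0.14), Lum at 3.05 (SE 0.11), Bgn at 2.40 (SE 0.11) and Postn at 2.26 (SE 0.12). Vcan, Bmp1 and Fbln1 lay near the 2-fold minimum, at 1.24, 1.07 and 1.03 (SE 0.08 each). The sizes for Ogn and Fmod are not exact, since SCR arrays lay under the lower quartile. Against WT, which shares the KD arrays with the first comparison, 8 members were called higher over the same days, where 11.2% of all genes were, with a median of 2.27. By its brightest probe set Fbln1 was the exception, at 0.58 (SE 0.08). Its other probe set had means of 8.04, 8.52 and 8.23 in KD EBs on days 12, 15 and 22. In WT EBs the means were 7.45, 7.17 and 7.14. The gap was wider than by the brightest probe set on each of these days, so the exception rests on the choice of probe set. The members with the larger differences were the small proteoglycans and periostin, and whether genes differ in this was not tested. Of the 13 other probe sets of the members, 9 were called higher in KD against SCR and none lower. Against WT 9 were called higher and none lower, that of Fbln1 among them.

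**Figure D1:**
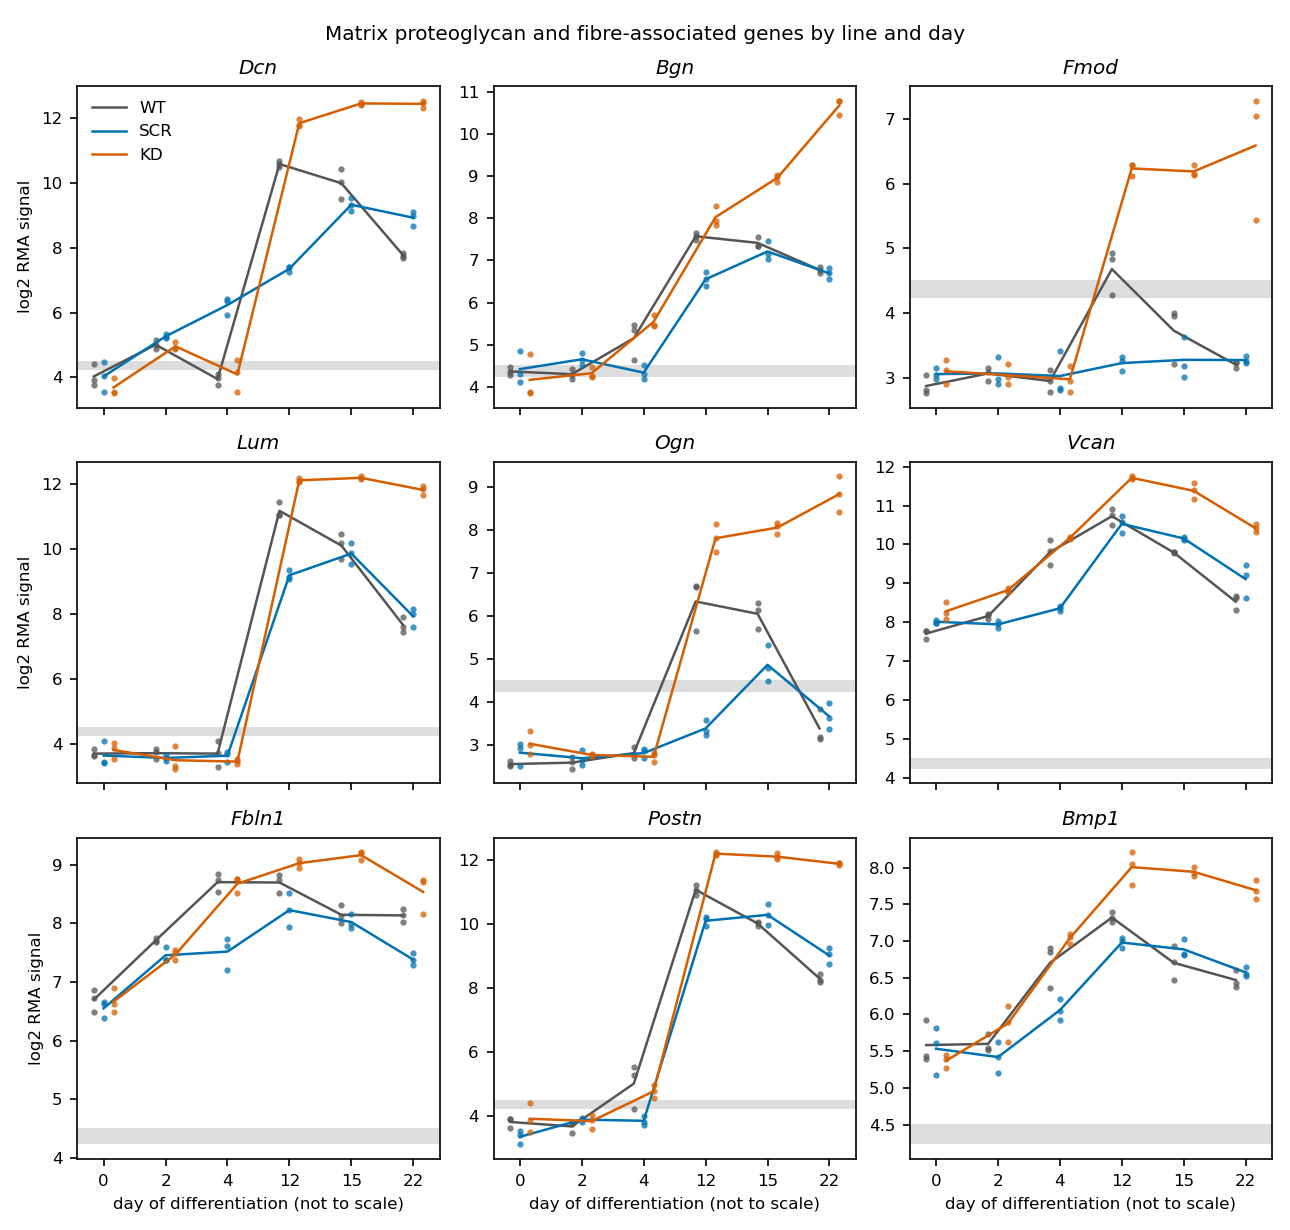
Log2 RMA signal of each measured member (vertical axis) by day (horizontal axis, not to scale) in WT (grey), SCR (blue) and KD (orange) cells. Points are single arrays, lines join the means of 3 arrays, and the grey band spans the lower quartiles of the arrays (4.23 to 4.51). From day 12 on the KD points of all 9 genes lie above the SCR points.

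Decorin, which takes its name from decorating collagen fibrils, read 3.52 to 4.48 in undifferentiated cells of the 3 lines, near the lower quartile of the arrays. Its 3 arrays read 10.50, 10.68 and 10.57 in WT, 7.24, 7.41 and 7.40 in SCR and 11.77, 11.97 and 11.79 in KD EBs at day 12. At day 22 they read 7.75, 7.69 and 7.85 in WT, 8.68, 9.11 and 8.99 in SCR and 12.46, 12.32 and 12.54 in KD. The KD arrays were the highest on both days without overlap, while WT lay above SCR at day 12 and under it at day 22. KD exceeded SCR by 4.49 (SE 0.20, limma adjusted p = 1.58e-21) at day 12 and by 3.51 (SE 0.20, limma adjusted p = 1.07e-18) at day 22.

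Decorin went the other way at day 4. SCR EBs read 6.43, 5.91 and 6.36, KD EBs 4.53, 4.18 and 3.56, and WT EBs 3.98, 4.11 and 3.75. SCR lay above both other lines without overlap. It exceeded WT by 2.29 (SE 0.20, limma adjusted p = 1.01e-12), KD against SCR was -2.14 (SE 0.20), and KD against WT was 0.14 (SE 0.20). The other Dcn probe set, which lay between 2.99 and 3.41 in these 3 groups, read 0.18 (SE 0.12) for KD against SCR at day 4, and as the mean of both probe sets the difference was -0.98, under 2-fold.

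Biglycan, the close relative of decorin that carries chondroitin or dermatan sulfate chains, kept rising in KD EBs. Its KD arrays read 8.30, 7.85 and 7.93 at day 12, 8.86, 9.03 and 8.99 at day 15 and 10.79, 10.45 and 10.79 at day 22. SCR read 6.39, 6.55 and 6.72, then 7.46, 7.03 and 7.15, then 6.71, 6.56 and 6.81 on the same days. WT read 7.48, 7.66 and 7.58 at day 12 and 6.78, 6.71 and 6.84 at day 22, close to SCR on the last day. The KD excess over SCR was 1.47 (SE 0.18) at day 12 and 3.98 (SE 0.18, limma adjusted p = 8.35e-22) at day 22, and the widening itself was 2.51 (SE 0.26, limma adjusted p = 3.02e-10). The other Bgn probe sets widened by 2.54 (SE 0.22) and 2.22 (SE 0.19).

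Lumican, a keratan sulfate proteoglycan of cornea and connective tissue, lay between 3.24 and 4.08 on all 27 arrays of days 0 to 4, every one under the lower quartile, so the size of its rise is not exact. At day 12 it read 11.05, 11.43 and 11.04 in WT, 9.35, 9.15 and 9.07 in SCR and 12.09, 12.05 and 12.19 in KD EBs. At day 22 it read 7.92, 7.43 and 7.61 in WT, 7.61, 8.01 and 8.16 in SCR and 11.83, 11.67 and 11.94 in KD. The WT and SCR arrays overlapped by day 22, and the KD arrays lay above both. KD exceeded SCR by 2.92 (SE 0.19) at day 12 and 3.89 (SE 0.19, limma adjusted p = 1.12e-20) at day 22, and WT by 0.94 (SE 0.19), under the 2-fold minimum, and 4.16 (SE 0.19).

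Osteoglycin, also named mimecan, lay at 2.44 to 3.31 through day 4, with all 27 arrays under the lower quartile. At day 12 it read 5.65, 6.66 and 6.68 in WT, 3.32, 3.58 and 3.23 in SCR and 7.47, 8.13 and 7.80 in KD EBs. At day 22 WT read 3.83, 3.17 and 3.13, SCR 3.37, 3.96 and 3.63, and KD 8.83, 8.42 and 9.24. KD was the highest line on both days, and WT and SCR overlapped at day 22. KD exceeded SCR by 5.18 (SE 0.22, limma adjusted p = 8.61e-23) and WT by 5.45 (SE 0.22) at day 22, the largest differences of any member in either comparison. Both control groups of day 22 were under the lower quartile, so these sizes are not exact.

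Fibromodulin, which binds the same collagen sites as lumican, was measured only by probe sets of the x type, whose probes can also match other transcripts. It read 4.28, 4.83 and 4.93 in WT, 3.11, 3.26 and 3.32 in SCR and 6.29, 6.29 and 6.12 in KD EBs at day 12. At day 22 WT read 3.15, 3.24 and 3.23, SCR 3.34, 3.23 and 3.26, and KD 7.04, 5.44 and 7.28, with KD replicate 2 under its other arrays but above all controls. The SCR arrays were under the lower quartile on every day, and Fmod was not called in SCR EBs on any day against day 0, whereas in KD EBs it rose by 3.13 (SE 0.25) at day 12. KD exceeded SCR by 3.00 (SE 0.25) at day 12 and 3.31 (SE 0.25, limma adjusted p = 5.71e-15) at day 22. The other 2 Fmod probe sets, under the lower quartile on 53 and 52 of 54 arrays, read 1.35 (SE 0.11) and 0.81 (SE 0.10) over days 12 to 22.

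Periostin, a secreted partner of collagen I and Bmp1, rose late in every line. At day 12 it read 10.91, 11.23 and 11.06 in WT, 10.22, 9.93 and 10.14 in SCR and 12.19, 12.16 and 12.24 in KD EBs. At day 22 WT read 8.45, 8.19 and 8.25, SCR 8.74, 9.24 and 9.05, and KD 11.90, 11.84 and 11.89. KD was above both controls without overlap, by 2.10 (SE 0.20) over SCR at day 12 and by 2.87 (SE 0.20, limma adjusted p = 7.74e-16) at day 22.

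Versican was already well measured in undifferentiated cells, at 7.56 to 8.52 over the 3 lines, and peaked at day 12 in all of them. At that day it read 10.51, 10.92 and 10.75 in WT, 10.73, 10.29 and 10.57 in SCR and 11.69, 11.70 and 11.75 in KD EBs. At day 22 the arrays read 8.67, 8.30 and 8.61 in WT, 8.63, 9.47 and 9.22 in SCR and 10.52, 10.32 and 10.41 in KD. KD was above both controls without overlap. Its excess over SCR was 1.18, 1.23 and 1.31 (SE 0.14 each) on days 12, 15 and 22, and its change from day 12 to day 22 was 0.13 (SE 0.20). The 6 Vcan probe sets did not act alike: 3 of the other 5 read 1.03 to 1.24 over days 12 to 22, and the remaining 2, under the lower quartile on all 54 arrays, read -0.02 and 0.01. As the mean of all 6 the difference was 0.78, under the minimum.

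Fibulin-1, which binds fibronectin and elastic fibres, differed the least from SCR over the mean of days 12 to 22, while Bmp1 differed by less on days 15 and 22. It read 8.52, 8.82 and 8.74 in WT, 8.51, 7.93 and 8.23 in SCR and 9.03, 9.10 and 8.94 in KD EBs at day 12, and 8.02, 8.14 and 8.24, then 7.28, 7.37 and 7.49, then 8.73, 8.16 and 8.71 in WT, SCR and KD EBs at day 22. The WT and KD arrays overlapped at day 22 (0.40, SE 0.14), and KD exceeded SCR by 1.15 (SE 0.14). By the brightest probe set the late call against SCR rested on a narrow margin: 1.03 became 0.96 at the lowest. This difference was under 2-fold with each array centred on its median, without SCR day 12 replicate 2 or without KD day 22 replicate 1. The other Fbln1 probe set was never under the lower quartile. At day 22 it read 8.26, 7.97 and 8.45 in KD, 7.11, 7.1 and 7.22 in WT and 6.73, 6.64 and 6.74 in SCR. There the KD arrays lay above both controls without overlap.

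Bmp1, the procollagen protease, had small differences that kept 1 direction. It read 7.26, 7.31 and 7.39 in WT, 7.04, 6.90 and 7 in SCR and 7.76, 8.21 and 8.05 in KD EBs at day 12, and at day 22 it read 6.38 to 6.6 in WT, 6.53 to 6.64 in SCR and 7.57 to 7.83 in KD. The KD arrays were above both controls without overlap on each of these days, by 1.03 to 1.12 (SE 0.15) over SCR. The other Bmp1 probe set was under the lower quartile on all 54 arrays and read 0.33 (SE 0.08) over days 12 to 22, so that as the mean of both probe sets Bmp1 was at 0.70, under the minimum.

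**Figure D2:**
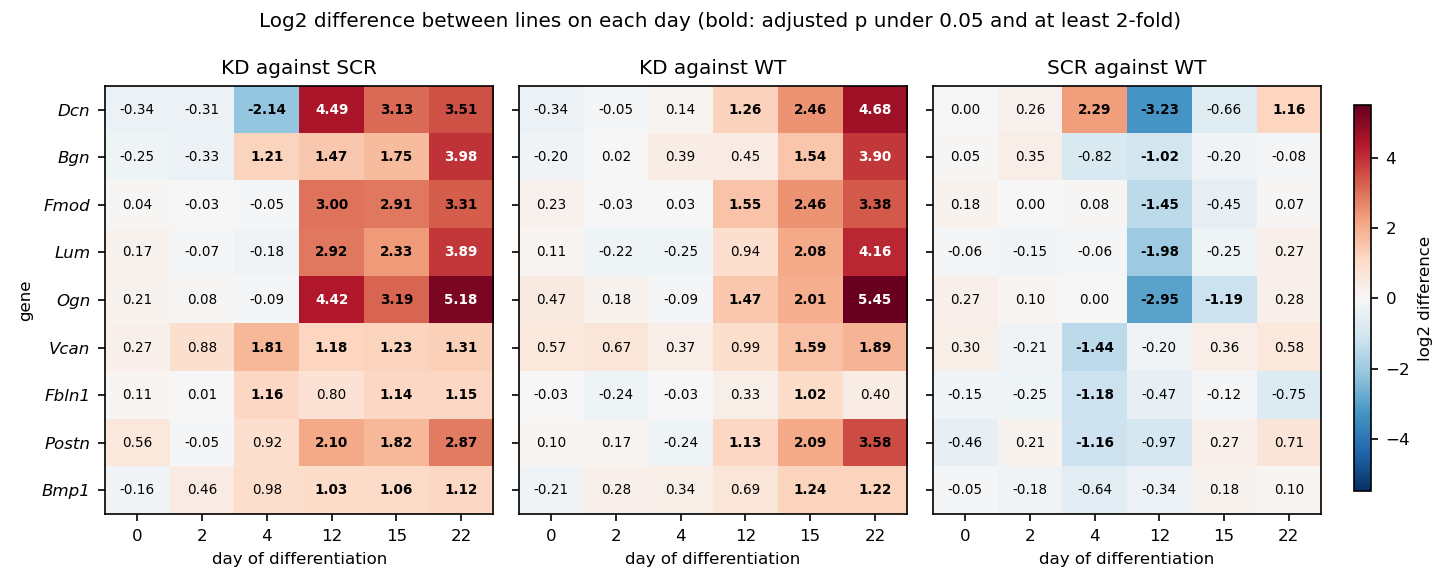
Log2 difference between lines on each day, for each measured member (rows) and day (columns), in KD against SCR, KD against WT and SCR against WT. Red is higher and blue is lower in the first line named, and bold values passed the adjusted p and the 2-fold minimum. Ogn at day 22 is the highest of KD against SCR (5.18), and Dcn at day 4 is its only called negative value (-2.14).

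At days 0 and 2 limma called none of the 9 members between any lines. In KD against SCR 1.21% and 4.74% of all genes were called in either direction on the 2 days, in KD against WT 1.53% and 0.964%, and in SCR against WT 0.9% and 2.6%. At an unadjusted p under 0.05 stood 1 and 2 members in KD against SCR, 2 and 1 in KD against WT, and 2 and 0 in SCR against WT. At day 4 Vcan (1.81, SE 0.14), Bgn (1.21, SE 0.18) and Fbln1 (1.16, SE 0.14) were called higher and Dcn lower in KD (5.67% and 6.15% of all genes). Bmp1 at 0.98 (SE 0.15) and Postn at 0.92 (SE 0.20) lay just under 2-fold, and without KD day 4 replicate 1 both passed, which made 6 called members in place of 4. As the mean of all probe sets of a gene, 2 were called. At day 12, 8 members were called higher (all but Fbln1, at 0.80; 8.66% of all genes), though Bmp1, at 1.03, was under 2-fold with each array centred on its median and without SCR day 12 replicate 2 or KD day 12 replicate 2. At days 15 and 22 all 9 were called higher (10.3% and 11.9%). The KD and SCR arrays did not overlap for any of the 9 on days 12, 15 and 22, a pattern that 34.6%, 35.4% and 31.5% of all genes showed in that direction.

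The 2 control lines did not give the same contrast at day 4. No member was called in KD against WT (0.0993% of all genes were called higher and 0.305% lower), with 3 at an unadjusted p under 0.05. In SCR against WT, Dcn was called higher and Vcan (-1.44, SE 0.14), Fbln1 (-1.18, SE 0.14) and Postn (-1.16, SE 0.20) lower, where 5.42% of all genes were called higher and 5.25% lower. The comparisons share arrays, since SCR is in both contrasts that made calls at this day. Postn was under 2-fold without WT day 4 replicate 2. At day 12 SCR was lower than WT in 5 members, none of which was called lower at day 4. These were Dcn by -3.23 (SE 0.20), Ogn by -2.95 (SE 0.22), Lum by -1.98 (SE 0.19), Fmod by -1.45 (SE 0.25) and Bgn by -1.02 (SE 0.18). Of all genes, 3% were called lower. Bgn was under 2-fold without WT day 12 replicate 2 or SCR day 12 replicate 1. At day 15 Ogn alone was called lower (3.36% of all genes), though not without SCR day 15 replicate 2, and at day 22 Dcn alone was called higher, by 1.16 (SE 0.20; 6.71%). Over days 12 to 22 Ogn alone was called, at -1.29 (SE 0.13; 2.42% lower).

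KD against WT therefore gives the late difference without the SCR arrays. At day 12 Fmod (1.55, SE 0.25), Ogn (1.47, SE 0.22), Dcn (1.26, SE 0.20) and Postn (1.13, SE 0.20) were called higher (5.64% of all genes), and the other 5 read 0.33 to 0.99. Without WT day 12 replicate 2 Lum and Vcan passed too. At day 15 all 9 were called (12.2%), Fbln1 at 1.02 (SE 0.14) and under 2-fold without WT replicate 1, KD replicate 2 or KD replicate 3, and at day 22 all but Fbln1 (15.9%). KD and WT arrays did not overlap for 9, 9 and 8 members on the 3 days, against 33.6%, 39.6% and 39.6% of all genes.

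Every member had been called higher than in undifferentiated cells by day 12 in WT and KD EBs, and 7 had in SCR EBs, all but Ogn and Fmod (12.5%, 20.2% and 12.8% of all genes were called higher in WT, KD and SCR). Earlier, at day 4, Vcan, Fbln1 and Bmp1 had risen in WT (2.09, 2.00 and 1.12) and in KD EBs (1.89, 2.01 and 1.67), joined by Postn in WT (not without WT day 4 replicate 2) and Bgn in KD, whereas Dcn alone had in SCR EBs (2.20, SE 0.20; 12.7%, 12.7% and 9.34% of all genes in WT, KD and SCR). At day 22 the count was 5 in WT (11.6% of all genes), 6 in SCR (17.3%) and 9 in KD (24.7%). At day 22 Dcn read 8.75 (SE 0.20) above day 0 in KD EBs, 3.74 in WT and 4.90 in SCR, sizes that are not exact since 7 of its 9 day 0 arrays were under the lower quartile.

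**Figure D3:**
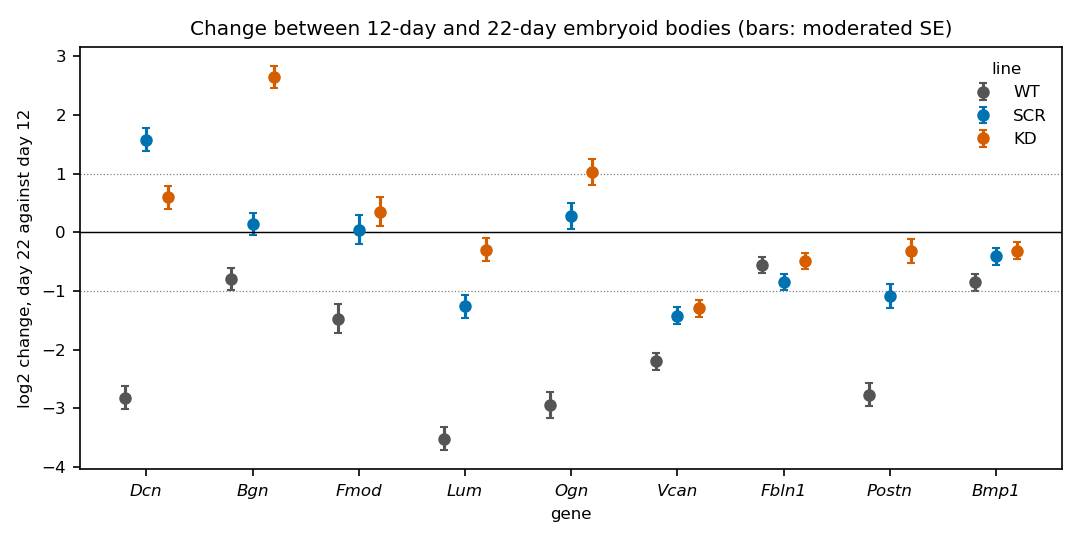
Log2 change from day 12 to day 22 (vertical axis) of each measured member in WT (grey), SCR (blue) and KD (orange) EBs, with bars for the moderated standard error and dotted lines at 2-fold. WT values are all under 0, from -0.56 to -3.52, and KD values range from -1.30 (Vcan) to 2.65 (Bgn).

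Between day 12 and day 22, 6 members were called lower in WT EBs, 3 in SCR and 1 in KD. By sign alone, the change was above 0 for 0 of 9 members in WT, 4 in SCR and 4 in KD. Among the WT values, Lum (-3.52, SE 0.19), Ogn (-2.95, SE 0.22), Dcn (-2.82, SE 0.20), Postn (-2.77, SE 0.20), Vcan (-2.20, SE 0.14) and Fmod (-1.47, SE 0.25) were called lower (3.56% of all genes). In SCR, Vcan (-1.42), Lum (-1.26) and Postn (-1.09, not without SCR day 22 replicate 1) were called lower (1.62%) and Dcn higher (1.58, SE 0.20; 5.3%). In KD, Bgn (2.65, SE 0.18) and Ogn (1.03, SE 0.22) were called higher (9.65%) and Vcan lower (-1.30, SE 0.14; 1.99%). The Ogn rise was at the minimum and was under it without KD day 12 replicate 1 or KD day 22 replicate 3. The mean of the 3 arrays was highest at day 12 for 8 members in WT, 3 in SCR and 3 in KD. It was highest at day 15 for 6 in SCR and 3 in KD, and at day 22 for none in WT or SCR and 3 in KD (Bgn, Fmod and Ogn). The peak days of all genes were not read.

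The changes from day 12 to day 22 were set against each other directly. They were more positive in KD than in WT EBs for 6 members (10.9% of all genes): Ogn by 3.98 (SE 0.31), Bgn by 3.45 (SE 0.26), Dcn by 3.42 (SE 0.28), Lum by 3.22 (SE 0.27), Postn by 2.45 (SE 0.28) and Fmod by 1.83 (SE 0.35). Against SCR, Bgn alone was called (7.07% of all genes), and Dcn (-0.98, SE 0.28) and Lum (0.97, SE 0.27) were just under the minimum. The count was 3 without SCR day 12 replicate 3 or KD day 12 replicate 3, and 2 without SCR day 12 replicate 2, KD day 12 replicate 1, KD day 22 replicate 2 or 3, or any single SCR array of day 22. From day 4 to days 12 to 22, the KD change exceeded the SCR change for 6 members (11.3% of all genes), among them Dcn at 5.85 (SE 0.23). These sizes are not exact, since Ogn, Lum and Fmod were under the lower quartile on all arrays of day 4. Postn was under it on 3 SCR arrays, Bgn on 2 SCR arrays and Dcn on 2 KD arrays. The Dcn size also includes its day 4 difference of -2.14. The other Dcn probe set, under the lower quartile on the KD and SCR arrays of day 4, did not show that difference. At that level it could not decide it.

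The members varied together across the 18 group means. Pearson correlations over the 36 pairs ran from 0.632 (Fmod and Fbln1) to 0.990 (Lum and Postn), with a median of 0.847, a description over groups that share lines and days. The genes of the whole table whose group means were most like each member were mostly collagens and other matrix genes for Dcn (Col1a2, r = 0.986, Col5a2, r = 0.980, and Col6a3, r = 0.979) and Postn (Col3a1, r = 0.992, Lum and Nr2f2). Bmp1 was nearest to Col5a1 (r = 0.986), Cmtm3 and Parva, and Bgn to Ctla2a (r = 0.978), Timp3 and Loxl1. Fmod was nearest to Macc1 (r = 0.992), Vstm4 and Tgfb3. Lum was nearest to Postn, Lyz1 and Igf1, and Ogn to C1qa (r = 0.993), Cybb and Cd52, which are genes of macrophages and other blood cells. Vcan was nearest to Smad5 (r = 0.970), Fkbp14 and Sema5a, and Fbln1 to Adcy6 (r = 0.971), Ccdc102a and Arhgap29.

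Several members lie beside relatives in the genome: RefSeq lists Dcn, Lum, Kera and Epyc in a row on chromosome 10, Ecm2, Aspn, Omd and Ogn on chromosome 13, Optc, Prelp and Fmod on chromosome 1, and Hapln1 before Vcan. Of these relatives, other than the members and where measured, 2 were called higher in KD against SCR EBs over days 12 to 22 (10.1% of all genes). Other genes beside the members were not read. Aspn, asporin, lay under the lower quartile in SCR EBs (2.13 to 2.42 at day 12, 2.76 to 2.80 at day 22) and read 5.25 to 5.66 and 8.13 to 8.31 in KD EBs, 4.15 higher over days 12 to 22 (SE 0.11). Epyc, epiphycan, passed at 1.24 (SE 0.07) but lay under the lower quartile on all arrays of days 12 and 22. Kera (0.89, SE 0.06), Prelp (0.45, SE 0.09), Ecm2 (0.44, SE 0.08) and Hapln1 (0.05, SE 0.18) were under the minimum.

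Other genes of the pathway were read from lists. Of the fibre and microfibril list, 12 of 17 measured genes were called higher in KD against SCR EBs over days 12 to 22 and none lower (median 1.40): Lox, lysyl oxidase, which crosslinks collagen and elastin, by 4.89 (SE 0.16), Efemp1, fibulin-3, by 2.20 (SE 0.15), and Loxl1 by 2.07 (SE 0.13). All 7 collagen chains were higher (median 3.00), with Col5a2 at 4.08, Col1a1 at 3.98 and Col1a2 at 3.39. Against WT the same comparison called 12 of 17 of the fibre list and 7 of 7 collagen chains (median 2.26) higher. Of the matricellular list 8 of 11 were higher (median 1.73), led by Ccn4 at 2.41, Thbs2 at 2.18 and Ccn3 at 2.14. Versican-cleaving proteases were higher in 5 of 6 (median 1.36): Adamts5 at 2.5 (SE 0.09), Adamts1 at 1.93 and Adamts4 at 1.48.

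The list of sugar chain enzymes had a lower median. Of 17 measured genes of chondroitin and dermatan sulfate synthesis, 3 were higher and none lower (median 0.51): Chsy3 at 1.81, Csgalnact1 at 1.62 and Chst11 at 1.14. Of 7 genes of the other lecticans, link proteins and hyaluronan, Cd44, a hyaluronan receptor, was higher (1.70) and Ncan, neurocan, the neural lectican, was lower (-1.38). Of 4 measured partners of procollagen cleavage, Pcolce, the enhancer of Bmp1, was higher at 1.84 and Tll1 at 1.06, and Pcolce2 was lower at -1.04. Of 9 genes of TGF-β signalling, Tgfb3 (3.01, SE 0.10), Tgfbr2 (2.92, SE 0.09) and Tgfbr3 (1.88, SE 0.09) were higher, and Tgfb1, Tgfb2 and the SMAD genes read -0.37 to 0.80. The medians of these lists stand beside -0.02 for all genes, and 10.1% of all genes were called higher and 4.88% lower.

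**Figure D4:**
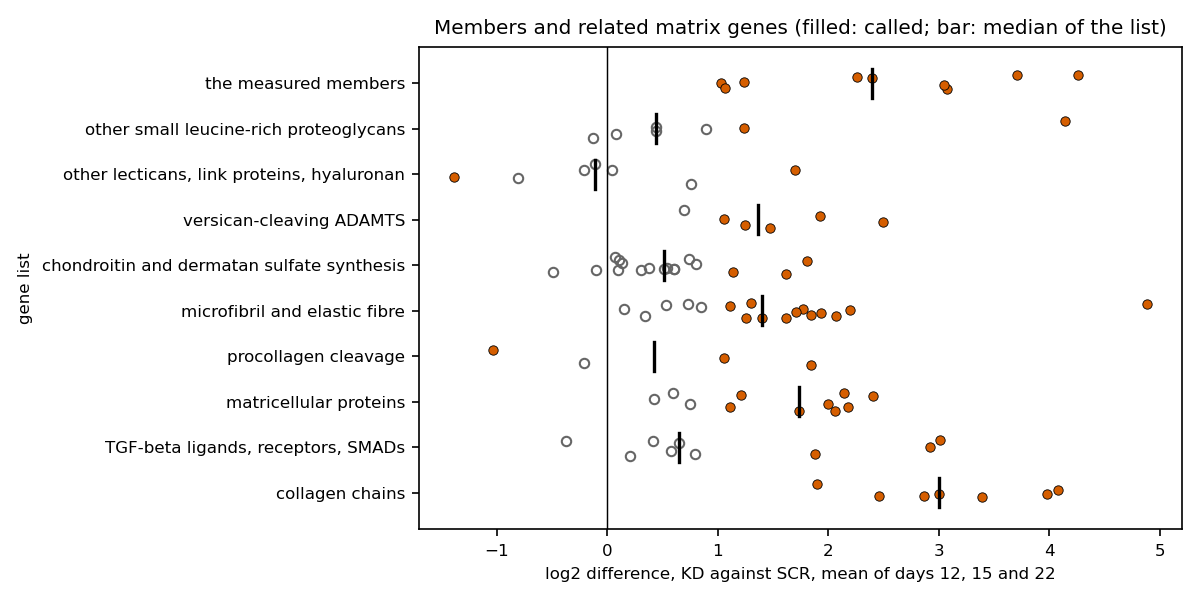
Log2 difference of KD against SCR EBs over days 12, 15 and 22 (horizontal axis) for the 9 measured members and for 9 lists of related genes. Filled points were called, open points were not, and bars mark list medians. The members have a median of 2.40, the collagen chains 3.00 and the lecticans and link proteins -0.11.

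Markers of some cell types moved with the members late in differentiation, and those of others did not. Of 12 mesenchyme markers 8 were called higher in KD against SCR EBs over days 12 to 22 (10.1% of all genes) and none lower (median 1.34), and their mean log2 signal lay between 8.45 and 8.67 on the KD arrays of day 22, 6.37 and 6.84 on SCR and 6.29 and 6.56 on WT. Tcf21, a transcription factor of visceral mesenchyme, was highest, at 5.13 (SE 0.11), and Prrx1 read 0.22 (SE 0.12). Against WT, 9 of 12 were higher over these days (11.2% of all genes). At day 4, 8 of 12 were higher in KD against SCR (5.67% of all genes), and 8 of 12 were lower in SCR against WT (5.25%): the list lay at 4.84 to 5.14 on SCR arrays, 6.61 to 7.26 on WT and 6.92 to 7.39 on KD. Pdgfra, the receptor of mesodermal and fibroblast cells, read 3.83 to 4.32 in SCR, 9.99 to 10.54 in WT and 9.78 to 10.25 in KD EBs at day 4, when Dcn was highest in SCR. Dcn was the member that went against the mesenchyme list on that day.

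Counts of other cell type markers over days 12 to 22 stand beside 10.1% of all genes called higher and 4.88% lower in KD against SCR, and 11.2% higher and 6.2% lower in KD against WT. Mural and smooth muscle markers were higher in 5 of 5 (mean log2 signal at day 22 of 8.93 to 9.25 in KD, 5.24 to 5.54 in SCR and 5.65 to 5.79 in WT), led by Rgs5 at 3.98. Cardiomyocyte markers were higher in 5 of 8 (7.79 to 8.27 in KD, 4.76 to 4.88 in SCR, 5.10 to 5.41 in WT), and endothelial markers in 4 of 6 (7.16 to 7.29 in KD, 4.45 to 4.70 in SCR, 5.18 to 5.40 in WT). For each of these lists the KD arrays of day 22 lay above both controls. So did those of the members other than Fbln1, each read by its brightest probe set. Extraembryonic endoderm markers were higher in 4 of 8 against SCR, but against WT 2 were higher and 3 lower. Neural markers were lower in 4 of 6 against SCR, and against WT 2 were higher and none lower. Pluripotency markers were lower in 5 of 6 against either control, with a day 22 mean of 9.08 to 9.13 in KD, 10.07 to 10.61 in SCR and 10.46 to 10.55 in WT. Of 7 cartilage and bone markers, Alpl alone was called against SCR, lower by -1.67 (SE 0.10), and against WT 1 was higher and 1 lower. The part of these cell types in the members' differences was not tested.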

How the data were processed

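Log2 expression values of 54 arrays were used as deposited. Per the labels' processing notes and the study's methods, the authors derived the log2 scale values with RMA, which corrects background, brings arrays to a common distribution and summarises probes, and the notes name Affymetrix Expression Console and Partek 6.6. Values lay between 1.65 and 14.03 and array medians between 5.94 and 6.26, and any filter on probe sets is not given in the sources used here. The number of arrays limits the precision. Groups came from sample titles, and p-values measure the spread between these arrays, which may be technical.

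Symbols came from the platform annotation (25596 of 30939 probe sets with 1 symbol, 685 with several, 4658 with none). The model of limma 3.58.1 (R 4.3.3) had 1 mean per group and 36 residual degrees of freedom, and errors are its moderated standard errors. Adjusted p-values are Benjamini-Hochberg values over all probe sets of each of 42 contrasts. On simulated data built on KD and SCR EBs of day 12, 49 of 50 probe sets changed by 1.5 on the log2 scale were called, and 0 of 30739 unchanged ones. Of 50 changed by 0.7, under the 2-fold minimum, 1 was called. No size between 0.7 and 1.5, where Vcan, Bmp1 and Fbln1 lay, was simulated.

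The members, the 17 lists (170 entries, 143 measured) and the tests were chosen with earlier results of these data known. All measured members are named. By the rule for names, up to 3 called genes of each list with the largest late difference of KD against SCR and the measured small proteoglycans beside a member in the genome are named, with Mageb16 as a check. Hapln1, Prrx1, Tgfb1 and Tgfb2 were named after their values were seen. Pattern neighbours are the 3 genes with the highest Pearson correlation over the group means. Alternatives varied the normalization, the probe sets, the arrays fitted, the variance model, array weights and the form of the 2-fold rule, and left out arrays in turn. Promoter windows came from RefSeq, build GRCm38.p6, and were found for Bgn, Fmod, Ogn, Vcan, Fbln1, Postn and Fbn1.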

Additional observations from a re-analysis of the deposited data

Results flagged for a closer look

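In 13 cases the change of a member over time differed between lines by a test of the difference itself (limma, adjusted p under 0.05 and at least 2-fold on the log2 scale). Of all genes, 7.07%, 10.9% and 11.3% were called higher in these contrasts, in the order given below. The contrasts share KD arrays and the same members recur, so the cases are not separate results. From day 12 to day 22 the change in KD EBs exceeded that in SCR EBs for Bgn, by 2.51. Over the same days it exceeded that in WT EBs for Dcn by 3.42, Bgn by 3.45, Fmod by 1.83, Lum by 3.22, Ogn by 3.98 and Postn by 2.45, and Fmod was under the minimum without all arrays of replicate 3. From day 4 to the mean of days 12, 15 and 22 the change in KD EBs exceeded that in SCR EBs for Dcn by 5.85, Bgn by 1.19, Fmod by 3.12, Lum by 3.23, Ogn by 4.35 and Postn by 1.34. Groups of 3 arrays are too small for a test of single arrays that lie apart.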

How the results depend on the processing

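No called difference of a member changed its direction under any alternative that was run. With the mean of all probe sets of a gene, 2 members were called in KD against SCR at day 4. With limma's treat at a 2-fold minimum, 2 were called in that comparison, 5 in KD against SCR at day 12, 2 in SCR against WT at day 4 and 0 in SCR against WT over days 12 to 22. Among the brightest 60% of probe sets, which leave out Fmod and Ogn, 0 were called in SCR against WT over days 12 to 22. Leaving out arrays gave 1 to 3 members for the change from day 12 to day 22 in KD against SCR (Dcn, Lum and Ogn joined Bgn), 4 to 6 in KD against SCR at day 4, 7 to 8 at day 12, 8 to 9 over days 12 to 22, 3 to 5 in SCR against WT at day 4 and 4 to 7 for day 22 against day 0 in SCR. The count in KD against SCR over days 12 to 22 was 7 to 9 under the other alternatives. With the replicate number as a block, 9 members were called in KD against SCR over days 12 to 22 and 4 at day 4, and the block changed none of the 17 counts tried. Nothing in the labels says what a replicate number stands for, and the deviations of same-numbered arrays from their group means correlated at -0.400 to 0.501, with each array nearest to its own number in 11 of 18 comparisons of groups. The fit of array weights stopped before it converged. Signals under the lower quartile of the arrays limit the sizes given for Fmod, Ogn, Lum, Aspn and Epyc. They also limit those for Dcn, Postn and Bgn where days 0 to 4 enter a difference.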
